A study of Danio rerio with 4 samples.

Results

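Splicing factor genes were followed in RNA from whole zebrafish embryos in which an npas4l transgene could be switched on by Cre. Members were the protein-coding rows whose symbols begin with snrp, snrnp, sf3, srsf, prpf, hnrn, u2af, or with lsm or rbm and a digit. A further condition was a value of 10 or more in at least 2 of the 4 libraries. Of 20390 listed genes, 133 matched by symbol and 131 met the value condition. The U7 snRNP gene lsm10 (5 and 9 in Cre-injected, 2 and 5 in uninjected libraries) and rbm33b (2 and 1 against 6 and 8) did not. No member met the condition through 1 group alone, and 129 had 10 or more in all 4 libraries.

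There were 2 libraries from Cre-injected embryos and 2 from uninjected embryos. Both groups carried the transgene allele bns298, built from hsp70l, a loxP-STOP-loxP cassette, and npas4l followed by GGGGGLSRS, P2A and mCherry. The hsp70l promoter answers to heat, and Cre takes out the STOP part. The npas4l product is a transcription factor needed to make endothelial and blood cells. Cre was injected at the one-cell stage. Both groups grew at 28 °C to the tailbud stage, received a 37 °C heat shock lasting 1 h, per the protocol shared by all 4 labels, and were collected as whole embryos at the 6-somite stage. The libraries analysed here include none from injected embryos lacking the transgene, so what is due to injection, to Cre or to the npas4l product cannot be told apart. The labels give neither the number of embryos per library nor the clutch behind each replicate. The p-values below therefore cover only the spread seen between these 4 libraries, which may be technical.

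The spliceosome removes introns from pre-mRNA. It is built from small nuclear ribonucleoproteins (snRNPs), each a small nuclear RNA with a ring of Sm or LSm proteins and its own further proteins. U1 binds the donor splice site, U2 with the SF3A and SF3B proteins binds the branch site, U2AF binds the pyrimidine tract and acceptor site, and a tri-snRNP of U4, U5 and U6 brings the catalytic parts. SR proteins and heterogeneous nuclear ribonucleoproteins (hnRNPs) bind exons and introns and steer which sites are used. RBM symbols name an RNA-binding motif, and their proteins have mixed roles in splicing, decay, export and ribosome assembly. Many of these genes exist as a and b copies in zebrafish, from a genome duplication in the fish lineage.

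Most splicing factor genes did not pass the test. Among those that passed, snrnp200 stood near double its uninjected level in both Cre-injected libraries. Values are normalised reads per gene, and the test was limma on log2(value + 1) over all 16754 genes with enough reads, at a Benjamini-Hochberg adjusted p under 0.05. Relative to uninjected embryos, Cre-injected embryos had 9 of the 131 members higher (6.87%) and 5 lower (3.82%). Over all genes tested, 6.35% were higher and 6.19% lower, and the members' shares lie near that background. Groups that do not overlap were common, in 28% (higher) and 28.8% (lower) of all genes tested. Where such a gene is named below, the lack of overlap is a description and not support for its call. Scaling moved the split of 9 higher and 5 lower calls to 5 and 6 with equal totals outside mitochondrial and structural RNA genes, and to 7 and 6 with upper-quartile scaling. Over all genes tested the shares higher and lower were 5.08% and 6.68% in the first fit and 5.37% and 6.8% in the second. The members' median log2 fold change was 0.08, with quartiles at -0.11 and 0.27. Over all genes tested the median was 0.00 with quartiles at -0.31 and 0.29. A log2 fold change of at least 0.5 in size was found for 16 members (12.2%), against 29.4% of all genes tested. The members were measured on more reads, with a median of their mean values of 804 normalised reads against 128 for all genes tested.

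The summed values of the libraries were 8933474 and 9861419 in Cre-injected and 9093935 and 9479827 in uninjected embryos. For whole embryos, marker genes of ectodermal, mesodermal, yolk and germ cell lineages were checked, and all 10 lists had reads. Germ cell sums were low, at 44 and 81 against 53 and 68, the yolk gene mxtx2 stood at 6 and 5 against 2 and 4, and ttr was not matched. Genes on several marker lists differed between the groups. Of 8 p53 target genes 7 were higher, with list sums of 35182 and 31041 in Cre-injected and 19096 and 18633 in uninjected libraries. Lower calls were made for 3 of 4 neural plate, 2 of 4 epidermal, 2 of 4 neural crest, 1 of 3 hatching gland and 1 of 2 tested yolk layer genes. Higher calls were made for 1 of 4 paraxial mesoderm genes and 1 of 4 endothelial and blood genes, and the 4 notochord and 3 germ cell genes did not pass. Signs were mixed within some lists. Log2 fold changes were 0.48 (msgn1), 0.03 (tbx16), -0.45 (myod1) and -0.17 (meox1) in paraxial mesoderm. For endothelium and blood they were 1.29 (etv2), 0.47 (tal1), -0.18 (kdrl) and -0.88 (gata1a). The yolk genes apoa2 and apobb.1 had -1.59 and 0.47, the second not passing. The part of these marker genes in the splicing factor results was not tested. In such bulk samples, fewer cells of a type and less RNA per cell cannot be told apart.

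**Figure D1:**
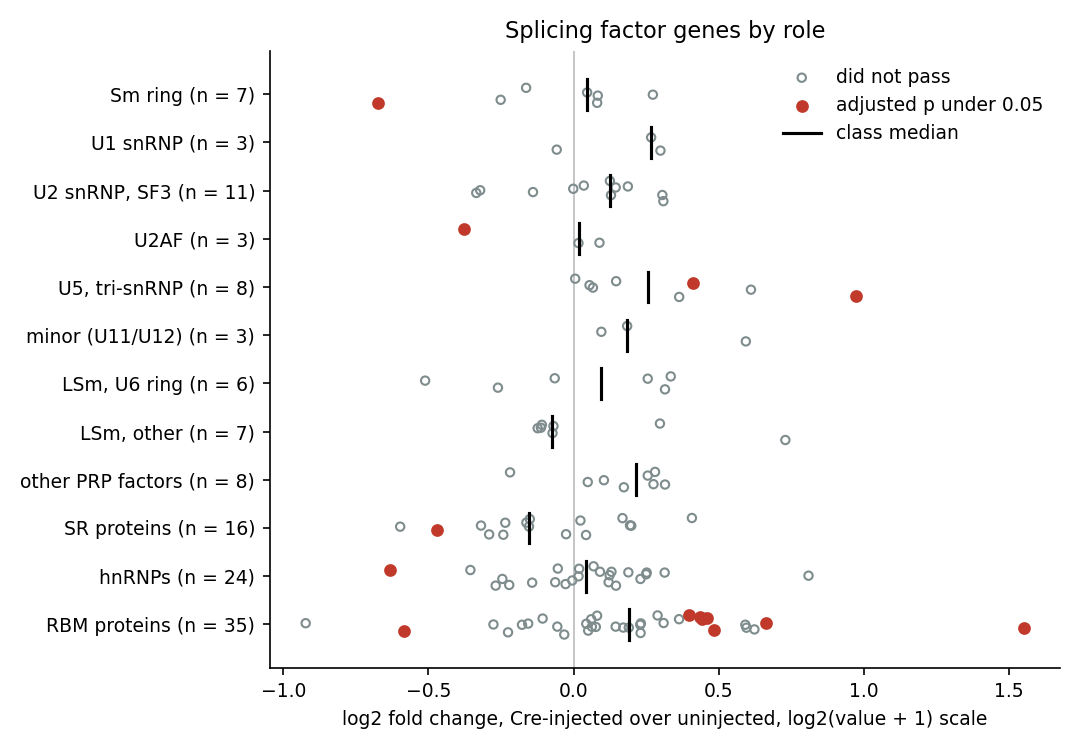
Each point is 1 of the 131 splicing factor genes, placed by its log2 fold change (Cre-injected over uninjected, horizontal axis) in its role class (vertical axis); filled points passed the adjusted p threshold of 0.05 and bars mark class medians. Calls lie on both sides of 0. The U5 and tri-snRNP genes lie at or above 0 (prpf4 falls below 0 under 3 other scalings). The class of 35 RBM genes holds 7 of the 9 higher calls. Over all genes tested 6.35% were called higher.

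The tri-snRNP class held the clearest difference. The gene snrnp200 (ENSDARG00000077536; chromosome 8, 31030613 to 31053872, minus strand, GRCz11 as the notes name it) encodes Brr2, the RNA helicase that parts U4 from U6 so that the spliceosome can be activated. It had 11885 and 11905 normalised reads in Cre-injected libraries, against 6145 and 5982 in uninjected libraries. The replicates of each group lie close together and the groups lie far apart. Its log2 fold change was 0.97 ± 0.10 (SE; limma adjusted p = 0.000143), a 1.96-fold difference, and by p it ranked 68 of 16754 genes. The log2 fold change was 0.973 and 0.971 without Cre-injected replicate 1 or 2, and 0.992 and 0.953 without uninjected replicate 1 or 2. In such fits the spread comes from the pair of 1 group alone. The call ended in 1 of 16 alternative fits, that without a mean-variance trend (adjusted p = 0.0805). Its span shares 922 bases with odf2b on the opposite strand, which stood at 291 and 390 in Cre-injected and 343 and 322 in uninjected libraries, values that overlap.

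The partners of snrnp200 in the U5 snRNP showed smaller differences. PRPF6, which bridges U5 to U4 and U6, was higher too: prpf6 had 1553 and 1757 in Cre-injected and 1265 and 1217 in uninjected libraries (log2 fold change 0.41 ± 0.11 SE, limma adjusted p = 0.0353). The 2 groups do not overlap. For prpf8, which encodes the scaffold of the catalytic centre, the values were 6914 and 5233 in Cre-injected and 4723 and 4626 in uninjected libraries (adjusted p = 0.0908). Both Cre-injected libraries lie above the uninjected ones, but they differ widely from each other. The U5 WD-repeat gene snrnp40 had 694 and 557 in Cre-injected and 595 and 602 in uninjected libraries, which overlap. The U5 GTPase gene eftud2, found outside the symbol rule, had 2184 and 1915 against 1991 and 2041, also overlapping. The U4 and U6 genes prpf3, prpf4 and prpf31 had log2 fold changes of 0.15, 0.01 and 0.07, and none passed. All 8 tri-snRNP genes had a fold change above 0 as deposited, and 7 of 8 under 3 of the other scalings, where prpf4 turned negative. The class median was 0.26 (0.22 to 0.26 over the scalings tried), and 2 of the 8 passed. Over all genes tested 12.5% passed, and whether the class differs from that share was not tested. The prpf6 call ended without uninjected replicate 1 or 2 (adjusted p = 0.29 and 0.346), with equal totals (adjusted p = 0.0628 over all genes, 0.0513 without mitochondrial and structural RNA genes) and with non-robust shrinkage (adjusted p = 0.0511).

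The tri-snRNP gene snrnp27, for a small protein with an arginine and serine rich stretch, showed how far the Cre-injected libraries can lie apart. It had 1103 and 2683 in Cre-injected libraries, against 1111 and 1141 in uninjected libraries. The first Cre-injected library lies at the uninjected level and the second alone is high. The log2 fold change of 0.61 ± 0.49 (SE) did not pass (limma adjusted p = 0.507).

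**Figure D2:**
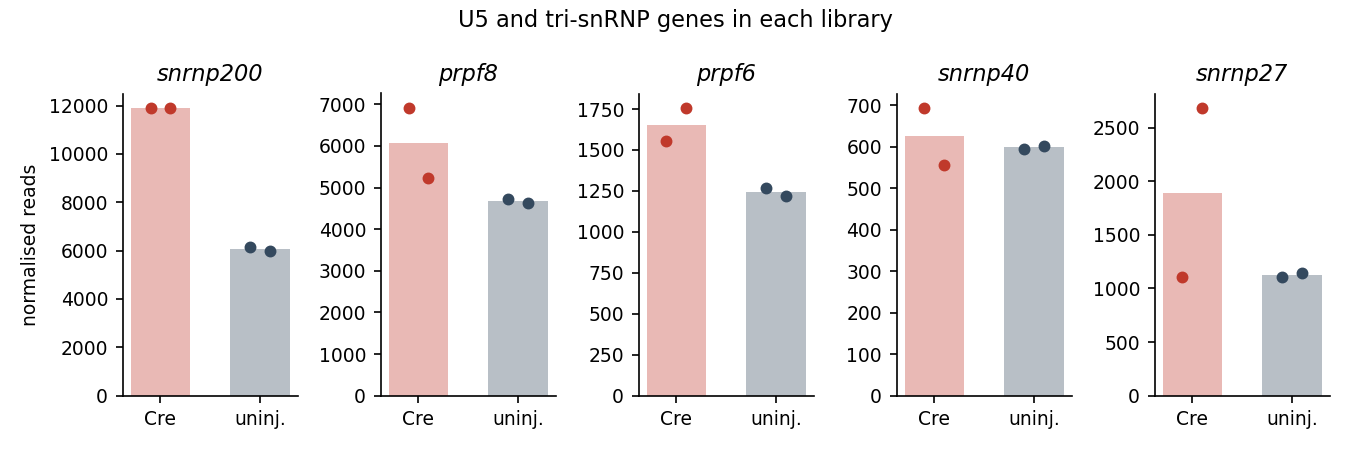
Bars give the mean and points the 2 single libraries of Cre-injected (left) and uninjected (right) embryos for 5 U5 and tri-snRNP genes, in normalised reads from 0, with a scale of its own for each gene. The snrnp200 points lie at 11885 and 11905 in Cre-injected embryos, whereas snrnp27 is high in 1 Cre-injected library alone.

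Among genes for the ring proteins of the snRNPs, 1 passed the test, against 12.5% of all genes tested. The Sm ring gene snrpg (chromosome 23, 33957350 to 33961989) fell to 251 and 295 in Cre-injected libraries, against 440 and 430 in uninjected libraries. Its groups do not overlap, and the log2 fold change was -0.67 ± 0.15 (SE; limma adjusted p = 0.0113). The other 6 Sm genes did not pass. SmD1 and SmD2 had values of 795 and 752 against 916 and 925 (snrpd1) and of 1613 and 1738 against 1874 and 1877 (snrpd2), with no overlap of the groups in either. For snrpb, snrpe, snrpf and snrpd3l the log2 fold changes lay between 0.05 and 0.27. The snrpd3l values of 146 and 345 in Cre-injected and 174 and 198 in uninjected libraries again set the second Cre-injected library apart. Left out, uninjected replicate 1 or 2 ended the snrpg call (adjusted p = 0.151 and 0.132).

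Of all 131 members, called or not, 21 were higher and 15 lower at an unadjusted limma p under 0.05. The share of all genes tested at that unadjusted p is not given here. At the adjusted threshold 12.5% of all genes tested were called. The unadjusted counts here and below are therefore not a result about the members or their classes. No gene of the U6 LSm ring passed, and 1 had an unadjusted limma p under 0.05. That was lsm5 of 6 genes, with 131 and 202 in Cre-injected and 224 and 241 in uninjected libraries (adjusted p = 0.131). Its groups do not overlap, while the Cre-injected pair is spread. Of the 7 LSm genes outside that ring, lsm11 came nearest to the threshold without passing, and it alone had an unadjusted limma p under 0.05. LSM11 belongs to the U7 snRNP, which trims histone mRNA ends, and lsm11 had 114 and 142 in Cre-injected libraries, against 64 and 91 in uninjected libraries (log2 fold change 0.73, adjusted p = 0.0685). The P-body genes lsm14aa and lsm14ab and the genes lsm12a and lsm12b had log2 fold changes between -0.12 and -0.07.

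U1 and U2 genes gave no calls, and 1 of 3 U1 and 3 of 11 U2 and SF3 genes had an unadjusted limma p under 0.05. Over all 131 members, called or not, that held for 21 higher and 15 lower genes, with no share over all genes tested beside it. U1-C, which stabilises pairing of U1 with the donor site, had the smallest p of 3 U1 genes: snrpc stood at 860 and 1058 in Cre-injected and 770 and 780 in uninjected libraries (adjusted p = 0.153). For snrnp70 the values were 719 and 1117, against 745 and 744. Of 11 U2 and SF3 genes, sf3b4, whose protein contacts RNA upstream of the branch site, had 568 and 681 in Cre-injected and 788 and 782 in uninjected libraries (log2 fold change -0.34, adjusted p = 0.114). The branch-site clamp gene sf3b1 had 3090 and 2827, against 2638 and 2555, and its SF3A partner sf3a1 had 1979 and 2556, against 1796 and 1834, both not passing. The class median was 0.13 and its members ran from -0.34 to 0.31. The 3 genes of the minor spliceosome, which removes a rare class of introns, gave no call, and none reached an unadjusted limma p under 0.05. The one with the smallest p, snrnp25, had 56 and 84 in Cre-injected libraries, against 55 and 37 in uninjected libraries (adjusted p = 0.233).

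The 8 other PRP factor genes likewise held no call, with 7 of 8 fold changes above 0 and a class median of 0.21. One had an unadjusted limma p under 0.05. For prpf19, whose ubiquitin ligase complex is part of the active spliceosome, the values lay close together, at 2091 and 2101 in Cre-injected and 2083 and 1971 in uninjected libraries.

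The large U2AF subunit, which binds the pyrimidine tract, is encoded by a pair of genes that differed in their values. The copy u2af2b (chromosome 19, 10299002 to 10324573) was lower, at 2066 and 2333 in Cre-injected libraries, against 2879 and 2824 in uninjected libraries. Its groups do not overlap, and the log2 fold change was -0.38 ± 0.11 (SE; limma adjusted p = 0.0426). The copy u2af2a had 4399 and 5387 in Cre-injected and 4892 and 4733 in uninjected libraries, which overlap. The small subunit gene u2af1 had 1421 and 1869, against 1547 and 1517. Without uninjected replicate 1 or 2 the u2af2b call ended (adjusted p = 0.395 and 0.34), and it also ended when columns were rescaled to equal totals (adjusted p = 0.0527) and with non-robust shrinkage (adjusted p = 0.0614).

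Of the 16 SR protein genes, srsf3b fell and 15 did not pass, while 6.19% of all genes tested were called lower. SRSF3 acts in splicing and in mRNA export. The gene srsf3b (chromosome 22, 613265 to 622967) had 574 and 731 in Cre-injected libraries, against 924 and 871 in uninjected libraries. All Cre-injected values lie below the uninjected ones, and the log2 fold change was -0.47 ± 0.14 (SE; limma adjusted p = 0.0444). Its copy srsf3a had 53 and 36 in Cre-injected and 60 and 74 in uninjected libraries (adjusted p = 0.208). Both copies of SRSF1, the classic exon-binding SR protein, also had all Cre-injected values below the uninjected ones, at 5370 and 5555 against 6581 and 6282 (srsf1a, adjusted p = 0.157) and at 930 and 1000 against 1228 and 1179 (srsf1b, adjusted p = 0.0875). On the other side, srsf4 had 1248 and 1676 in Cre-injected libraries, against 1088 and 1092 in uninjected libraries (adjusted p = 0.0766).

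The SR class had the lowest median of the 12 role classes, at -0.15 (-0.19 to -0.15 over the scalings tried). In 8 of its 16 genes both Cre-injected values lay below both uninjected ones, and in 3 they lay above. Over all genes tested those shares were 28.8% and 28%, and over all members 26.7% and 35.1%. The srsf3b call ended without uninjected replicate 1 or 2 (adjusted p = 0.357 and 0.245) and with non-robust shrinkage (adjusted p = 0.0685). Its log2 fold change was -0.64 with Cre-injected replicate 1 alone and -0.29 with Cre-injected replicate 2 alone.

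Among 24 hnRNP genes, 1 was called, against 12.5% of all genes tested. HNRNPA0 binds AU-rich elements in mRNAs, and hnrnpa0a (chromosome 14, 24277556 to 24279957) fell to 1527 and 1168 in Cre-injected libraries, against 2010 and 2130 in uninjected libraries. The groups lie apart, with a log2 fold change of -0.63 ± 0.13 (SE; limma adjusted p = 0.00962). Its span shares 250 bases with dpf2l on the opposite strand, which stood at 941 and 1014 in Cre-injected and 693 and 705 in uninjected libraries. It also shares 1911 bases with the noncoding BX005228.1 on the same strand, which had 76 and 41, against 59 and 63. Without uninjected replicate 1 or 2 the hnrnpa0a call ended (adjusted p = 0.118 and 0.174).

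Other A0 genes lie side by side elsewhere on chromosome 14. There hnrnpa0l (38849432 to 38850933) had 2262 and 2699 in Cre-injected libraries, against 3270 and 3057 in uninjected libraries (log2 fold change -0.36, adjusted p = 0.0674). Its neighbour hnrnpa0b (38845674 to 38848166) had 42 and 26, against 17 and 20 (log2 fold change 0.81, adjusted p = 0.206). All Cre-injected values lay below the uninjected ones in the first and above them in the second, and neither gene passed. A further row listed as hnrnpa0l, on chromosome 20, carries another gene's name, gzf1, in the table of gene names used here, and had 140 and 144 against 113 and 162.

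The remaining hnRNP genes ranged from close to widely spread values. The gene hnrnpabb had 4366 and 4413 in Cre-injected and 4330 and 4334 in uninjected libraries, and hnrnpl2 had 6056 and 6067, against 6005 and 5975. Both have log2 fold changes of 0.02. The scaffold protein gene hnrnpua had 1555 and 1660, against 1240 and 1347 (adjusted p = 0.0881), with no overlap of the groups. hnrnpc, whose protein binds uridine-rich stretches of pre-mRNA, had 1537 and 1654, against 1892 and 1950 (adjusted p = 0.127). The spans of hnrnpd and hnrnpdl share 3163 bases on the same strand, so their reads may be partly shared. The class ran from -0.63 to 0.81 with a median of 0.04, and 14 of its 24 fold changes were above 0 (12 to 15 over the scalings tried).

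The 35 RBM genes, a class of mixed functions, held 7 of the 9 higher calls and 1 of the 5 lower ones. Without this class, 2 members were higher and 4 lower. Over all genes tested 6.35% were higher and 6.19% lower. Whether the class differs from that background was not tested. In human cells RBM26 and RBM27 are linked to nuclear RNA decay by the exosome. The gene rbm27 (chromosome 9, 54237100 to 54280035) had 546 and 631 in Cre-injected libraries, against 364 and 376 in uninjected libraries (log2 fold change 0.66 ± 0.14 SE, limma adjusted p = 0.00845). Its relative rbm26 had 896 and 956, against 668 and 695 (log2 fold change 0.44, adjusted p = 0.0308). Neither gene's groups overlap. The rbm27 span shares 11083 bases with larsa on the opposite strand, which had 642 and 777 in Cre-injected and 553 and 527 in uninjected libraries.

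A further 5 RBM genes rose. RBM47 is a partner of mRNA-editing enzymes in mammals, and rbm47 stood at 1302 and 1323 in Cre-injected and 965 and 912 in uninjected libraries (log2 fold change 0.48, adjusted p = 0.0151). RBM33 takes part in mRNA export in human cells, and rbm33a had 1576 and 1565, against 1135 and 1146 (log2 fold change 0.46, adjusted p = 0.0164). Replicates of both genes lie closely together within each group. RBM19 acts in ribosomal RNA processing and is needed for gut development in zebrafish, and rbm19 had 1454 and 1814, against 1134 and 1274 (log2 fold change 0.43, adjusted p = 0.0486). The gene rbm12b had 959 and 988, against 745 and 731 (log2 fold change 0.40, adjusted p = 0.0416). RBM25 joins U1-linked factors in alternative splicing. Its copy rbm25a rose on few reads, with 39 and 28 in Cre-injected and 14 and 8 in uninjected libraries (log2 fold change 1.55 ± 0.45 SE, adjusted p = 0.044).

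One RBM gene fell. It was rbm4.1, of the RBM4 family of alternative splicing regulators, with 513 and 486 in Cre-injected libraries, against 736 and 761 in uninjected libraries (log2 fold change -0.58 ± 0.12 SE, limma adjusted p = 0.00973). On chromosome 7 it stands in a row of 3 related genes on the same strand, rbm4.3 (22792132 to 22795637), rbm4.2 (22796083 to 22801248) and rbm4.1 (22801465 to 22806803). Its neighbour rbm4.2 had 1374 and 1332, against 1268 and 1290 (adjusted p = 0.668), and rbm4.3 had 5697 and 6862, against 5424 and 5537 (adjusted p = 0.309). Of the muscle regulators, rbm24b had 25 and 29, against 54 and 50 (adjusted p = 0.0771), and rbm24a had 1192 and 1074, against 1331 and 1411 (adjusted p = 0.136). Neither passed, though no Cre-injected value of either reached an uninjected one.

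The RBM calls ended without uninjected replicate 1 or 2, where the spread comes from the Cre-injected pair alone and fewer of all genes tested were called. Their fold changes kept their signs. The log2 values without uninjected replicates 1 and 2 were 0.454 and 0.468 for rbm33a, and 0.641 and 0.688 for rbm27. They were 0.35 and 0.518 for rbm19, and 1.92 and 1.183 for rbm25a. Without Cre-injected replicate 1 the rbm25a call ended too (log2 fold change 1.32). With equal totals the calls of rbm12b (adjusted p = 0.091), rbm19 (0.0569) and rbm26 (0.061) ended. With mitochondrial and structural RNA genes outside the totals those of rbm12b (adjusted p = 0.0687), rbm19 (0.0662) and rbm25a (0.0533) ended, with upper-quartile scaling those of rbm12b (0.0598) and rbm19 (0.0652), and with non-robust shrinkage those of rbm12b (0.0524), rbm19 (0.0765) and rbm25a (0.0601). The log2 fold change of rbm19 was 0.27 with Cre-injected replicate 1 alone and 0.59 with Cre-injected replicate 2 alone.

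**Figure D3:**
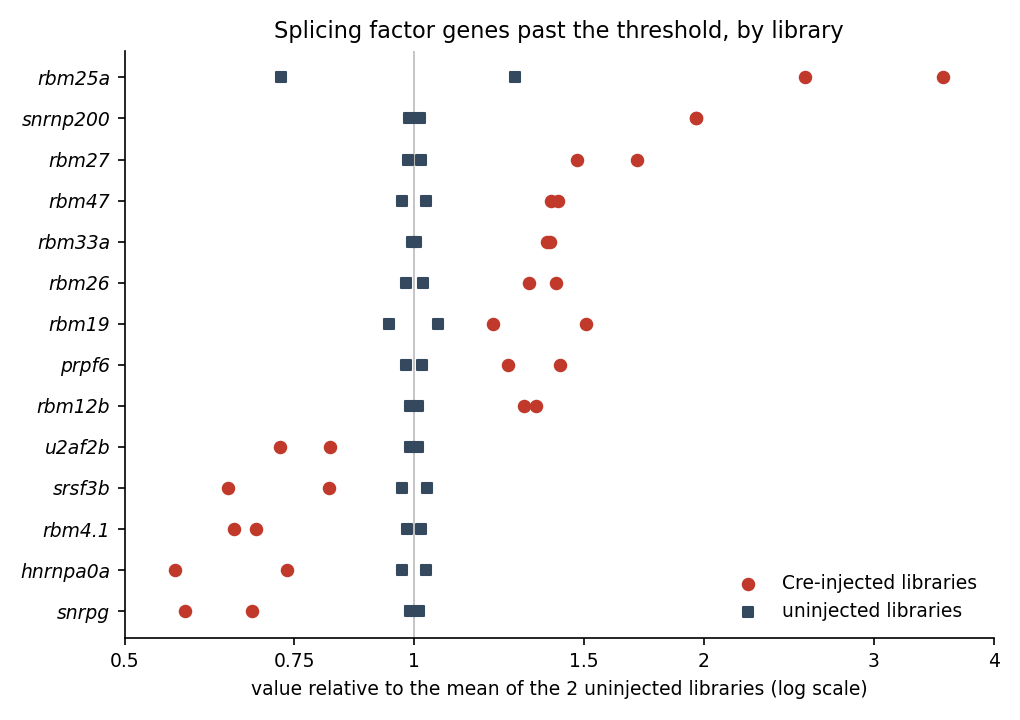
The 14 splicing factor genes past the threshold (vertical axis) are shown with each library's value divided by the mean of the 2 uninjected libraries (horizontal axis, log scale), circles for Cre-injected and squares for uninjected libraries. No gene's groups overlap, which choosing genes by adjusted p favours. Over all genes tested, the groups did not overlap in 28% (higher) and 28.8% (lower). The snrnp200 circles coincide near 2, and the uninjected squares of rbm25a are the most spread.

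Duplicated genes did not always have like values in the 2 copies. Of 18 a and b pairs, 12 had fold changes of the same sign, and in 4 pairs 1 copy alone passed the threshold. Over all genes tested 12.5% passed, and 10.7% of the members. A call of 1 copy alone does not show that the copies differ. Differences between copies were not tested. The widest gaps in log2 fold change were -1.44 for hnrnpa0a less hnrnpa0b and 1.41 for rbm25a less rbm25b, each with 1 copy on few reads. The copy rbm25b had 753 and 967 in Cre-injected and 808 and 737 in uninjected libraries. Its span shares 4593 bases with the antisense gene AL928824.1, which fell to 4 and 11 in Cre-injected libraries, against 40 and 59 in uninjected libraries (log2 fold change -2.68, limma adjusted p = 0.00535). For the well-measured pair u2af2a and u2af2b the gap was 0.39. The pair srsf5a and srsf5b had a gap of -0.41, with 1694 and 1756 against 2116 and 1967 in the first and 1115 and 1188 against 1013 and 1035 in the second. In contrast the srsf6 copies had log2 fold changes of -0.16 and -0.15. No source used here states how reads matching both copies were treated or which strand was counted, so values of near-identical copies and antisense partners are uncertain.

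**Figure D4:**
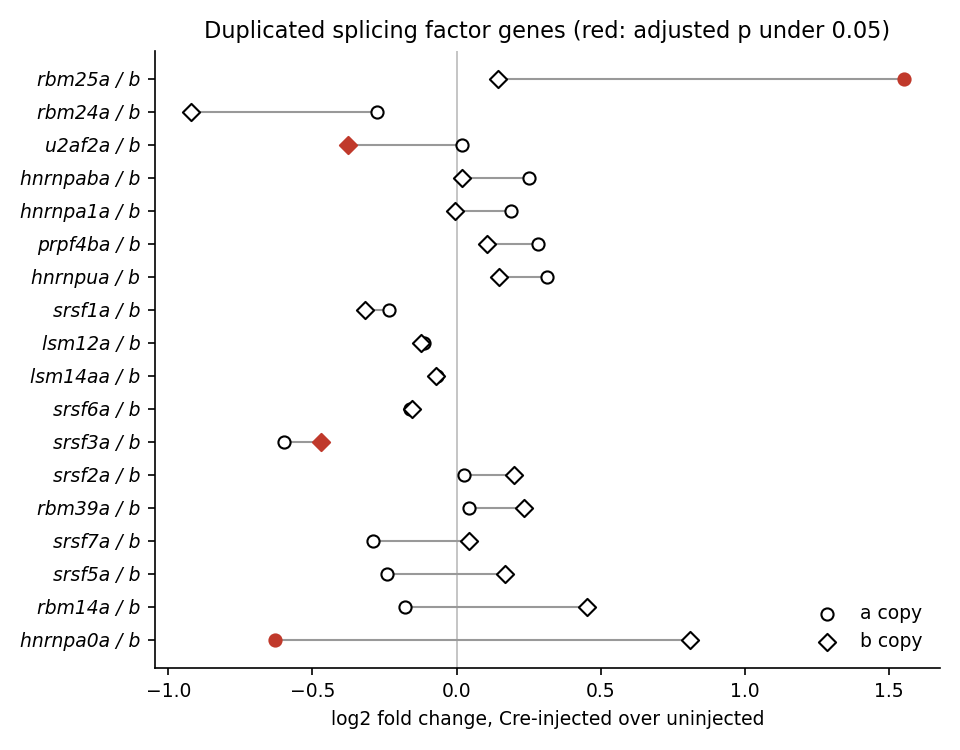
Each row is 1 of 18 duplicated splicing factor genes, with the log2 fold change (Cre-injected over uninjected) of the a copy as a circle and of the b copy as a diamond; red symbols passed the adjusted p threshold of 0.05. Both srsf6 symbols lie together, while the hnrnpa0 and rbm25 symbols lie furthest apart.

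The libraries within a group differed for these genes mainly on the Cre-injected side. The 2 Cre-injected libraries differed by more than 1.5-fold in 12 members (9.16%, against 17.4% of all genes tested), and the 2 uninjected libraries in 2 members (1.53%, against 12.7%). The median size of the log2 difference was 0.21 between Cre-injected and 0.08 between uninjected libraries for the members. In all, 93 of 131 members (71%) were higher in Cre-injected replicate 2 than in replicate 1, against 49.5% of all genes tested. The members' median difference of replicate 1 less replicate 2 was -0.15 on the log2 scale. Over all genes tested that median was 0.0. With equal totals the members' median was -0.01, with 66 members higher in replicate 2, and the median over all genes tested was 0.135. Both medians thus moved with the scaling, and the members' lay below that of all genes tested under every scaling tried. Differences above 1.5-fold with the higher value in replicate 2 included snrnp27, snrpd3l, rbm17 (798 and 1534), snrnp70 (719 and 1117) and hnrnpaba (3254 and 4908). These 5 genes were picked after their values were seen.

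**Figure D5:**
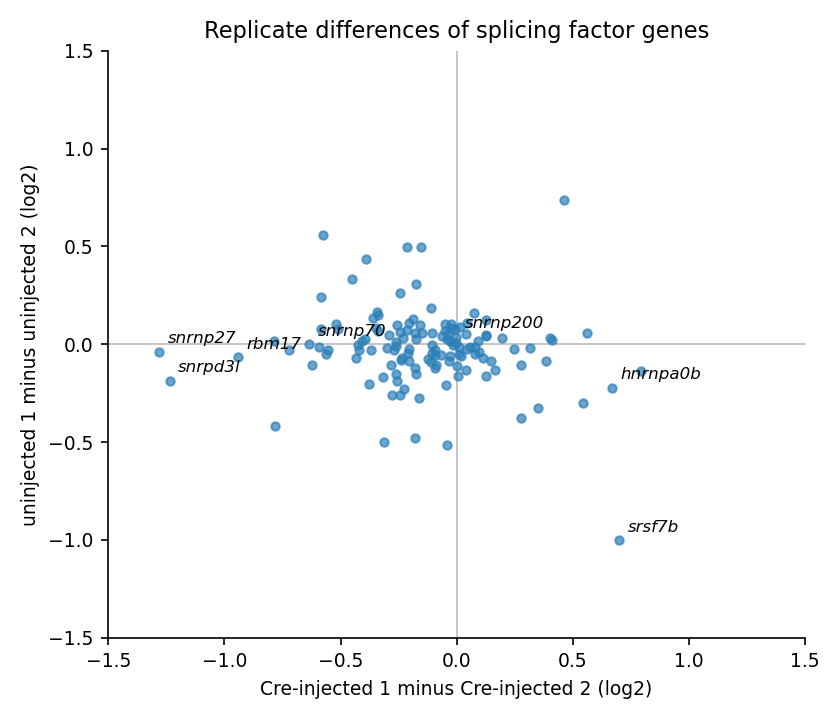
Each point is 1 of 131 splicing factor genes, with the log2 difference between Cre-injected replicates 1 and 2 on the horizontal axis and between uninjected replicates 1 and 2 on the vertical axis. Points spread further along the horizontal axis and more of them lie left of 0, with snrnp27 and snrpd3l beyond -1.

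The counts of calls depended on which library was left out. In such fits the lone library of a group is assumed to vary as the other group's pair does. They were run only on the values as deposited, while the difference between the Cre-injected replicates moved with the scaling. Without Cre-injected replicate 1, limma called 36 members higher and 11 lower (27.5% and 8.4%, against 12.3% and 11.2% of all genes tested). Without Cre-injected replicate 2 it called 16 higher and 13 lower (12.2% and 9.92%, against 9.07% and 10.4%). Without uninjected replicate 1 or 2 snrnp200 alone was called higher, with backgrounds of 1.67% and 1.36%. In these last 2 fits 0 members were called lower by limma, against 1.3% and 1.25% of all genes tested, and 3 and 5 were lower at an unadjusted p under 0.05.

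Spliceosome and splicing regulator genes outside the symbol rule were listed by role, and 149 of them were tested. Of these 10 were higher (6.71%) and 6 lower (4.03%), near the 6.35% and 6.19% of all genes tested, with a median log2 fold change of 0.10. The split was 6 and 5 with equal totals, and 5 and 6 with upper-quartile scaling or with mitochondrial and structural RNA genes outside the totals. Over all genes tested the shares were 5.16% and 5.78% with equal totals, and 5.37% and 6.8% with upper-quartile scaling. They were 5.08% and 6.68% with mitochondrial and structural RNA genes outside the totals. The DEAH-box helicase gene dhx38 (PRP16, which remodels the spliceosome between the catalytic steps) had 1073 and 1213 in Cre-injected libraries, against 711 and 753 in uninjected libraries (log2 fold change 0.64 ± 0.12 SE, limma adjusted p = 0.00514). The gene for the large SR-related matrix protein srrm2 had 2523 and 3159, against 1795 and 1931 (adjusted p = 0.00906). Also higher were cwc15 of the PRP19-linked core (log2 fold change 0.87), the exon junction gene upf3b (0.79), scaf1 (0.46) and pnisr (0.42). Without Cre-injected replicate 2 the upf3b value was 0.41 and its call ended (adjusted p = 0.0734), the cwc15 call ended (adjusted p = 0.0524), and the scaf1 value was 0.26. The pnisr call ended with equal totals (adjusted p = 0.0841), with mitochondrial and structural RNA genes outside the totals (0.0652) and with upper-quartile scaling (0.0571). Non-robust shrinkage ended the calls of upf3b (0.0689), scaf1 (0.07) and pnisr (0.0518). All higher calls on this list, those of dhx38 and srrm2 included, ended without uninjected replicate 1 or 2. Fewer of all genes tested were called in those fits.

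Of 47 alternative splicing regulators tested, 4 were lower (8.51%, against 6.19% of all genes tested) and 2 higher (4.26%, against 6.35%). The higher ones were ilf2, with 2925 and 3419 in Cre-injected and 2493 and 2340 in uninjected libraries (log2 fold change 0.39, limma adjusted p = 0.0445), and matr3l1.1, with 2326 and 2466 against 1827 and 1888 (0.37, adjusted p = 0.0423). Both were named after their values were seen. The gene celf2 had 72 and 76 in Cre-injected libraries, against 142 and 185 in uninjected libraries (log2 fold change -1.12 ± 0.22 SE, limma adjusted p = 0.00597). Both copies for the cold-inducible RNA-binding protein fell, with 8297 and 8184 against 11413 and 11368 (cirbpa, adjusted p = 0.0113) and 6597 and 6013 against 8259 and 8606 (cirbpb, adjusted p = 0.023). The muscle splicing regulator gene rbfox1l (-0.46), the helicase gene ddx17 (-0.45) and the U4 and U6 cyclophilin gene ppih (-0.65) also fell, the rbfox1l call ending with equal totals (adjusted p = 0.06) and with non-robust shrinkage (0.0591). SR-related and kinase genes gave 3 higher calls of 15 tested (20%, against 6.35% of all genes tested), with a median of 0.27. The calls on the whole list of other splicing genes varied with the library left out, as did those over all genes tested. Most of the lower calls on that list also ended without uninjected replicate 1 or 2.

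Members lie on all 25 chromosomes, and 25 of them overlap another listed gene. Fold changes were somewhat higher in longer genes. Across 131 members, the log2 fold change and the log2 span of the gene in bases had Pearson's r of 0.28 (Spearman's rho 0.28), against 0.09 (0.11) across 16244 protein-coding genes tested. These are correlations across genes, which share 4 libraries and are not independent replicates. The 66 members with spans from 10693 to 101551 bases had a median log2 fold change of 0.15 with 8 higher and 1 lower call. The 65 with spans from 1502 to 10336 bases had 0.02 with 1 higher and 4 lower. Over all genes tested, of any span, 6.35% were higher and 6.19% lower. The higher calls of the longer genes included rbm19, rbm25a, rbm26, rbm27, rbm33a and rbm47, so span and RBM class were not separated. The span had an r of 0.14 with the difference between the Cre-injected replicates (replicate 1 less replicate 2), over the members and over all protein-coding genes alike.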

How the data were processed

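Libraries were made from 10 ng of total RNA with a stranded low-input kit and read as 75-base single ends, per the labels' protocols. The deposited values are whole-number scores. They look like read counts that the authors normalised by library and then rounded, because the Cre-injected columns skip whole numbers at regular steps (every 60 and 66). The submitters' processing notes name STAR 2.6.0c, featureCounts 1.6.0, DESeq2 1.14.1 and GRCz11, without roles, and the strand setting and treatment of shared reads are not given in the sources used here. Since the values are normalised, no count model was used. Genes reaching 10 in 2 or more libraries were tested with limma 3.58.1 (R 4.3.3), using a mean-variance trend and robust shrinkage on log2(value + 1). Folds on this scale understate the change of low genes. On simulated data for this comparison (16434 genes), 69 of 99 genes changed 2-fold, 82 of 99 changed 4-fold and 2 of 16236 unchanged genes were called. The simulation gave genes of like mean the same spread, and both groups the same spread. In the real libraries the members' median replicate difference was 0.208 in Cre-injected and 0.078 in uninjected embryos, so the simulated rates need not hold for them.

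Members and lists were chosen with earlier results of these data known. Of 158 symbols on the list of other splicing genes, 151 were matched, 3 of them through gene names. Members were named where called, where of smallest p in their class, or where paired with a called copy, and 1 gene so chosen is not reported here. Up to 6 called genes in each direction were named from the other list. Further members were named after their values were seen. Sequences were not used here. Figures were drawn with matplotlib 3.10.9.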

Additional observations from a re-analysis of the deposited data

How the results depend on the processing

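With 9 higher and 5 lower splicing factor genes as reported, the counts were 5 higher with equal totals, 5 higher when mitochondrial and structural RNA genes stayed out of those totals, 5 and 3 with non-robust shrinkage, 2 and 2 at adjusted p under 0.01, and 2 higher without the RBM class. With no mean-variance trend limma called 0 and 0, against 0.179% and 0.406% of all genes tested, and 11 and 4 members had an unadjusted p under 0.05. Leaving out 1 library gave 1 to 36 higher and 0 to 13 lower members, and a members' median from 0.012 (without Cre-injected replicate 2) to 0.142. The 10 higher and 6 lower calls among other splicing genes became 6 higher with equal totals, 5 higher with mitochondrial and structural RNA genes outside the totals, 5 higher with upper-quartile scaling, 3 higher with non-robust shrinkage, 0 and 0 with no trend (7 and 8 at unadjusted p under 0.05), and 2 and 1 at adjusted p under 0.01. Leaving out 1 library gave 0 to 49 higher and 0 to 15 lower. Over all genes tested the shares higher and lower were 5.16% and 5.78% with equal totals, and 4.92% and 4.99% with non-robust shrinkage. They were 5.08% and 6.68% with mitochondrial and structural RNA genes outside the totals, and 5.37% and 6.8% with upper-quartile scaling. These shares also varied with the library left out. The shares over all genes tested at adjusted p under 0.01 are not given here. The cause of these shifts was not tested, beyond what fewer libraries and a stricter threshold bring by construction. Signs turned for u2af2a (0.017 as reported, -0.022 with those genes outside the totals, -0.015 with upper-quartile scaling, and -0.129 to 0.163 with 1 library left out) and rbm25b (0.145 as reported, -0.035 to 0.325 with 1 library left out), neither called as reported. Filters, pseudocounts and median-ratio scaling changed no call of a named gene.

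Same-numbered libraries were not treated as pairs. The correlation of their deviations was -0.03 over 16754 genes and -0.145 over the members. With 1 difference per group, these values cannot show whether such libraries share a clutch. With the replicate block 11 members were higher and 4 lower, against 6.76% and 6.69% of all genes tested. Of the 14 calls 12 remained, those of u2af2b (limma adjusted p = 0.0546) and rbm12b (0.0572) ending, while lsm11 (0.0394) was among those gained. For other splicing genes the block gave 10 and 6, and the pnisr call ended (0.0542). With 2 libraries per group, 69 of 99 simulated 2-fold changes were detected, and smaller changes were not simulated. That simulation set the same spread for genes of like mean in both groups, so its rates need not hold for these libraries.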

Other observations

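Some RNA components of the spliceosome were listed, in 5 rows on few reads, with no row of the U4 or U6 family. The U2 and U5 rows met the value condition and were among the genes tested. No test result is given here for any of these rows. The rows named RF00003, the Rfam family of U1, had values of 0 and 2 in Cre-injected libraries, against 8 and 5 in uninjected libraries (chromosome 10), and of 0 and 0 against 8 and 0 (chromosome 9). The row RF00004, the U2 family, had 14 and 7, against 12 and 11. The row RF00007, the U12 family, had 1 and 0, against 5 and 0. The row RF00020, the U5 family, had 6 and 23, against 13 and 18.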
